A study of Mus musculus with 27 samples.

Results

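Matrix metalloproteinases (MMPs) and their tissue inhibitors (TIMPs) were followed as 10 genes out of the 25192 gene symbols in the deposited count table, taken by name: Mmp2, Mmp3, Mmp9, Mmp12, Mmp13, Mmp14, Mmp19, Timp1, Timp2 and Timp3. All 10 were in the table. Cultured macrophages grown from bone marrow (BMDM), mouse embryonic fibroblasts (MEF) and cells labelled mouse aortic endothelial (MAEC) were each left unstimulated (0 h) or given imidazole propionate (ImP), a histidine metabolite of gut bacteria, at 10 µg/mL for 1 or 2 h, and RNA was sequenced in bulk from 3 libraries of each of the 9 groups, 27 in all. No genotype, strain, sex, age or passage was used here, and no vehicle group at 1 or 2 h is among the samples, so ImP and time in culture cannot be told apart. The study's question was which pathways ImP turns on in each of these cells. Separate cultures or animals are not named in the labels for the replicates, so p-values cover only the variation among these libraries, and that may be technical.

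MMPs are zinc endopeptidases that cut collagens, elastin, proteoglycans and many non-matrix proteins. Most are secreted as inactive zymogens whose prodomain must be removed, by furin inside the cell for membrane-type MMPs or by plasmin and other proteases outside it. TIMPs bind the active site and block it, so that the balance of the MMP and TIMP proteins sets how much matrix is cut. In the atherosclerotic plaque, matrix degradation by macrophage and smooth muscle MMPs is studied for its part in thinning of the fibrous cap. Transcript levels say nothing about zymogen activation or inhibition at the protein level.

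Total counts per library were 28.8 to 35.6 M in macrophages, 30.6 to 36.5 M in fibroblasts and 19 to 61 M in the MAEC libraries. Macrophage markers summed to 20300 to 23100 CPM (counts scaled to library size) in the macrophage libraries and all 6 were at or above a mean of 1 CPM there. Fibroblast markers summed to 3460 to 4610 CPM in MEF, where 5 of 6 reached that mean and Thy1 did not. That sum was mostly Col1a1 (1890 to 2650 CPM) and Col1a2 (1520 to 1900 CPM), both higher in MEF than in the MAEC libraries. Pdgfra (21.8 to 28.6 CPM), Pdgfrb (20.8 to 26.1), Col3a1 (1.84 to 2.58) and Thy1 (0.425 to 1.16) were lower in MEF. In the MAEC libraries these stood at 289 to 394, 49.1 to 86.5, 70.3 to 103 and 421 to 475 CPM. In the libraries labelled MAEC the endothelial markers summed to 0.444 to 10 CPM: Cdh5, Kdr, Tie1 and Vwf stayed below a mean of 1 CPM, and Pecam1 and Tek did not exceed 4.47 and 4.95 CPM. Fibroblast markers summed to 1770 to 2510 CPM and smooth muscle markers to 793 to 1370 CPM in the same libraries, so the label is not borne out by the defining genes and these are called MAEC libraries only as labelled. In these libraries the smooth muscle sum was mostly Acta2 (549 to 1060 CPM) and Tagln (233 to 341 CPM). Cnn1 stood at 8.98 to 22.2 CPM and Myh11 at 0 to 3.82 CPM. Macrophage markers summed to 37.2 to 70 CPM and neutrophil markers to at most 2.44 CPM there. The MAEC libraries were made with a low-input kit and the others with a directional kit, so kit and cell type cannot be told apart. In a bulk sample, fewer cells of a type and less RNA per cell cannot be told apart either.

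Of the 10 genes, Mmp13, Mmp12 and Mmp3 lie close together in the MMP cluster of chromosome 9, and their promoters are shown because each was high in a different set of the cells. RefSeq promoter windows (GRCm38.p6, 250 bases before to 50 after the transcript start) matched 7 of the 10 genes: Mmp3, Mmp12 (with 2 starts), Mmp13, Mmp14, Timp1, Timp2 and Timp3. Mmp2, Mmp9 and Mmp19 were not matched. The 150 bases before the start are printed 5′ to 3′ on the gene's strand for Mmp13 (chr9:7272364-7272513, plus strand), Mmp12 (chr9:7344247-7344396 for its upstream start and chr9:7347224-7347373 for its downstream start, plus strand), Mmp3 (chr9:7445672-7445821, plus strand) and Timp1 (chrX:20870016-20870165, plus strand). Capitals mark the AP-1 letters TGAGTCA, read on both strands (as TGACTCA on the other), and the TATA box letters TATAAA.
Mmp13: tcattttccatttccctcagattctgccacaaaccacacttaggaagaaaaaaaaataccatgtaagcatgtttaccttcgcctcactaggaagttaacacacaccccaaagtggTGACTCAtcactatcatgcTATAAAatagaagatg
Mmp12, upstream start: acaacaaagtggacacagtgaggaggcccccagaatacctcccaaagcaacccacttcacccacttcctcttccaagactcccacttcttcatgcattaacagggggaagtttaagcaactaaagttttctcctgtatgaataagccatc
Mmp12, downstream start: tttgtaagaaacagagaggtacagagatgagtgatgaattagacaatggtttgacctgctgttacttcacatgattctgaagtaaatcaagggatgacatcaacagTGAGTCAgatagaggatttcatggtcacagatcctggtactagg
Mmp3: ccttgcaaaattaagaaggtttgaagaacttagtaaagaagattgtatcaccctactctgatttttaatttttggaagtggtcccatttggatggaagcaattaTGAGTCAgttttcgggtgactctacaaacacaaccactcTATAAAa
Timp1: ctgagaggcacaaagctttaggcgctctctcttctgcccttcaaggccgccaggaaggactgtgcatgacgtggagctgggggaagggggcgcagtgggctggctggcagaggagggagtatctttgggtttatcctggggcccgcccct
The AP-1 letters stood from -46 to -40 before the Mmp3 start, from -35 to -29 before the Mmp13 start and from -44 to -38 before the downstream Mmp12 start. They were found in 3 of the 7 genes, and in 5.2% of all 32851 windows of the same length. TATAAA was found in the windows of the same 3 genes, against 13.6% of all windows, and for Mmp12 it lay after the start, from 4 to 9. The ETS letters AGGAAG were found in 6 of the 7 genes (35.4% of all windows) and the RUNX letters ACCACA in 2, Mmp13 and Mmp14 (16.8% of all windows). No match to the AP-1 or TATA letters was found in the windows of Mmp14, Timp1, Timp2 or Timp3. These matches describe letters, not occupied sites.

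To compare genes with one another, counts were divided by the length of each gene's longest coding transcript and rescaled so that every library sums to the same total; these are called length-scaled levels. This scaling is not that of the tests below, so a gap between cell types can differ in size from the tested log2 difference. Statements of overlap on length-scaled levels hold for that scale only. Each cell type was led by a different metalloproteinase. At 0 h, Mmp12 made up 64.8% ± 2.85 (SD, n = 3) of the summed length-scaled level of the 20 MMP genes in the table in macrophages. Mmp14 made up 53.5% ± 3.88 and Mmp2 27.1% ± 2.04 in fibroblasts. Mmp3 made up 78.9% ± 5.3 in the MAEC libraries. The inhibitors differed as well: over the 4 TIMP genes, Timp2 made up 97.3% ± 0.578 in macrophages, Timp1 and Timp2 made up 56.5% ± 3.17 and 39% ± 3.6 in fibroblasts, and Timp1 made up 80.7% ± 6.81 in the MAEC libraries, with Timp3 at 12.5% ± 4.45. By mean length-scaled level at 0 h, Timp1 ranked 10 among 24468 genes in the MAEC libraries and Mmp3 ranked 71. Mmp12 ranked 552 in macrophages and Mmp14 ranked 1207 in fibroblasts. These shares and ranks depend on the division by length. In mean CPM at 0 h, Timp2 (598) exceeded Timp1 (206) in fibroblasts, and Timp3 (2160) lay nearer to Timp1 (2820) in the MAEC libraries. Mmp12 (379), Mmp14 (188) and Mmp3 (1630) still led the MMP genes of their cell types in CPM.

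**Figure D1:**
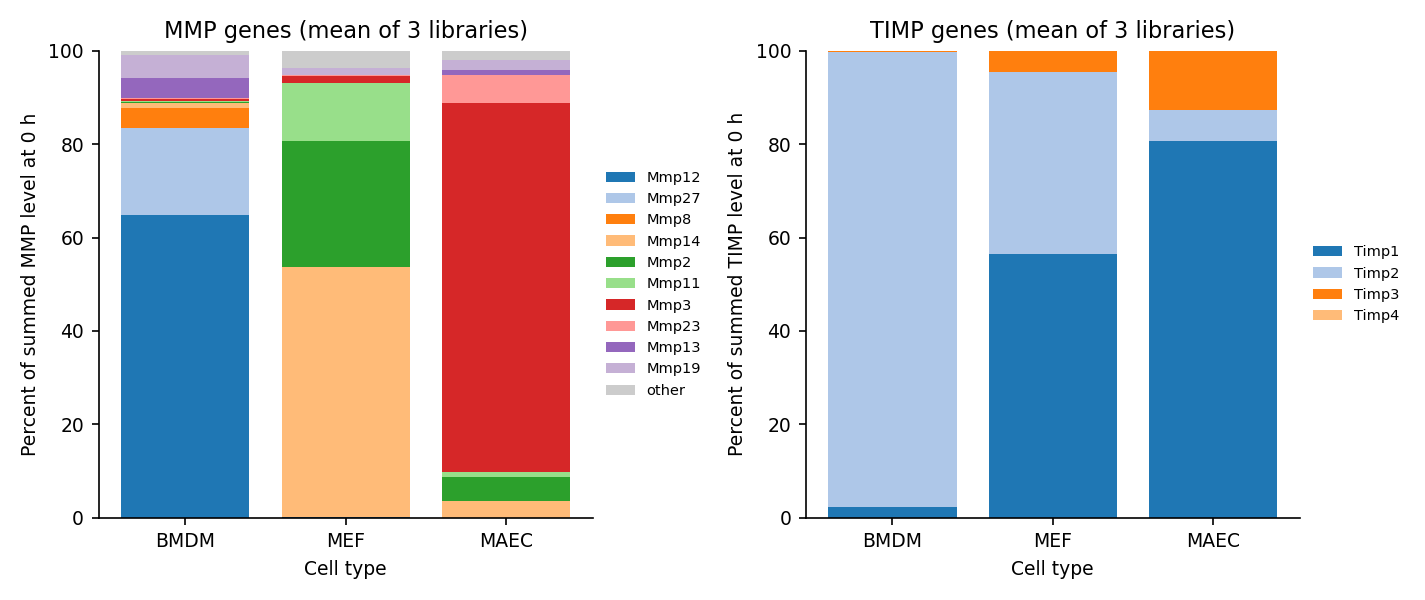
Stacked bars show the mean share (percent, 3 libraries at 0 h) of each gene in the summed length-scaled level of 20 MMP genes (left) and 4 TIMP genes (right) in each cell type. Mmp12 leads in BMDM at 64.8%, Mmp14 in MEF at 53.5% and Mmp3 in MAEC at 78.9%, and Timp2 takes 97.3% of the TIMP level in BMDM.

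Differences between the cell types at 0 h were tested in 1 edgeR quasi-likelihood model of all 27 libraries, with Benjamini-Hochberg adjustment over 17038 genes and a threshold of 0.05. Between macrophages and fibroblasts, 4 of the 10 genes were higher in macrophages, against a background of 32.7% of all genes tested, and 5 were lower, against 35.5%. Between MAEC libraries and fibroblasts, 7 were higher in MAEC (background 37.2%) and 3 lower (34.9%). Between macrophages and MAEC libraries, 2 were higher in macrophages (36.1%) and 7 lower (40.6%). Most of the genes tested differ between these cell types. The counts are therefore given beside the background, and the sizes of the differences carry the description. Under scaling by library totals alone the median of all genes moved by -0.418 on the log2 scale for macrophages minus fibroblasts, by -0.179 for MAEC minus fibroblasts and by -0.236 for macrophages minus MAEC, and the share of higher calls among all calls in the first of these went from 47.9% to 36.3%.

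**Figure D2:**
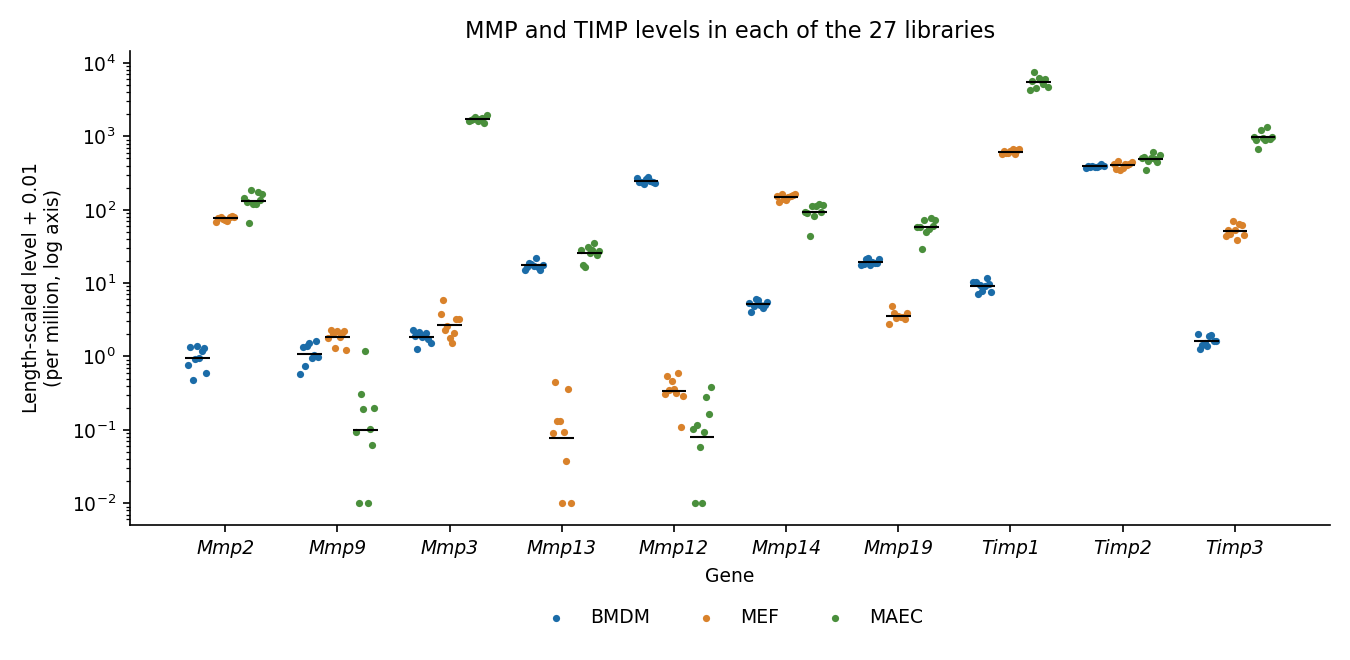
Each point is 1 of the 27 libraries (9 per cell type, from 0, 1 and 2 h), placed by its length-scaled level plus 0.01 on a log axis, and each short line is the geometric mean of the plotted values. Mmp12 is high in BMDM alone and Mmp3 in MAEC alone among the 3 cell types, whereas Timp2 lies between 345 and 611 in every library.

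Mmp12, the macrophage metalloelastase, is known for cutting elastin. The gene lies on chromosome 9 (GRCm38, 7344381 to 7369499, plus strand). Its length-scaled levels at 0 h were 275, 237 and 237 in macrophages, 0.299, 0.536 and 0.344 in fibroblasts, and 0.0934, 0 and 0.106 in the MAEC libraries. Macrophage libraries did not overlap with either of the others. The log2 difference was 9.81 (SE 0.307, edgeR adjusted p = 1.42e-19) against fibroblasts and 11.51 (SE 0.352, edgeR adjusted p = 6.32e-20) against MAEC. Counts of Mmp12 over all 9 MAEC libraries were 0 to 20, so that difference rests on few counts on the MAEC side. Its exons share 157 bases with Mmp1b on the opposite strand, and the strand of counting is not given in the sources used here; Mmp1b had 0 counts in all macrophage and fibroblast libraries and 35 to 337 in the MAEC libraries.

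Mmp3 encodes stromelysin-1, a protease of proteoglycans, fibronectin and basement membrane components that also activates other pro-MMPs. It lies at chromosome 9, 7445822 to 7455975, plus strand. Length-scaled levels at 0 h were 1630, 1670 and 1720 in the MAEC libraries, 3.83, 5.82 and 2.3 in fibroblasts and 2.28, 1.89 and 1.24 in macrophages. The MAEC level stood 9.32 log2 units above fibroblasts (SE 0.259, edgeR adjusted p = 3.96e-20), and macrophages lay below MAEC (log2 difference -9.96, SE 0.272, edgeR adjusted p = 7.94e-21). Macrophages and fibroblasts differed by -0.64 (SE 0.258, edgeR adjusted p = 0.0317). That small difference was lost without the second fibroblast 0 h library (-0.26, edgeR adjusted p = 0.372), without the second (adjusted p = 0.0512) or the third macrophage 0 h library (adjusted p = 0.175), and with limma-voom (adjusted p = 0.318).

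Mmp13, an interstitial collagenase of the mouse, sits at chromosome 9, 7272514 to 7283331, plus strand. It was found in macrophages and in the MAEC libraries but hardly in fibroblasts. Length-scaled levels at 0 h were 15.3, 16.7 and 18.5 in macrophages, 28.5, 17.8 and 16.7 in the MAEC libraries and 0.0806, 0.445 and 0.124 in fibroblasts, where the raw counts were 3, 16 and 4. The differences from fibroblasts were 6.76 log2 units in macrophages (SE 0.455, edgeR adjusted p = 8.9e-13) and 7.17 in MAEC (SE 0.457, edgeR adjusted p = 2.86e-13). Macrophages and MAEC overlapped; their difference was -0.42 with a 95% interval from -1.04 to 0.21 (edgeR adjusted p = 0.212), and DESeq2 placed it just past the threshold (adjusted p = 0.0447).

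The gelatinases cut denatured collagen and basement membrane collagen. Mmp2 (chromosome 8, 92827291 to 92853420, plus strand) was found in fibroblasts and the MAEC libraries: length-scaled levels at 0 h were 68.8, 76.3 and 80.9 in fibroblasts, 146, 126 and 66.5 in the MAEC libraries and 0.766, 1.32 and 0.466 in macrophages. The third MAEC library lay below all 3 fibroblast libraries on this scale. In the edgeR model MAEC was 1.17 log2 units above fibroblasts (SE 0.222, edgeR adjusted p = 4.78e-05) and macrophages lay below fibroblasts (log2 difference -5.92, SE 0.301, edgeR adjusted p = 3.35e-15). Mmp9 (chromosome 2, 164940780 to 164955850, plus strand) was low everywhere. Its length-scaled levels at 0 h were 0.575, 1.34 and 0.727 in macrophages, 1.76, 2.27 and 2.03 in fibroblasts and 0.0825, 0 and 0.302 in the MAEC libraries. The macrophage libraries all lay below the fibroblast ones on this scale, but the difference did not pass the threshold (-0.67, 95% interval -2.31 to 0.96, edgeR adjusted p = 0.465). That wide interval is from the model of all 27 libraries, in which Mmp9 had 0 to 37 counts in the MAEC libraries. It does not show that macrophages and fibroblasts are alike. MAEC was lower than fibroblasts (log2 difference -3.24, SE 0.907, edgeR adjusted p = 0.00259), on raw MAEC counts of 7, 0 and 15. The difference of 2.56 between macrophages and MAEC (edgeR adjusted p = 0.0127) was lost without the second macrophage, the first MAEC or the second MAEC 0 h library (edgeR adjusted p = 0.0577, 0.055 and 0.0505).

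Mmp14 encodes the membrane-type protease MT1-MMP, which activates pro-MMP2 at the cell surface together with TIMP2. It maps to chromosome 14, 54431612 to 54445364, plus strand. Its length-scaled levels at 0 h were 155, 129 and 164 in fibroblasts, 92.9, 90.5 and 43.5 in the MAEC libraries and 5.29, 3.98 and 4.94 in macrophages. The 3 cell types did not overlap on this scale, on which the gap between fibroblasts and MAEC is wider than in the edgeR model. Macrophages lay below fibroblasts (log2 difference -4.47, SE 0.192, edgeR adjusted p = 5.55e-17). The smaller difference between MAEC and fibroblasts, -0.40 (SE 0.162, edgeR adjusted p = 0.029), did not hold without the third MAEC 0 h library (-0.18, edgeR adjusted p = 0.237). It was also lost without the first or the third fibroblast library (edgeR adjusted p = 0.0753 and 0.0989), with RLE scaling (adjusted p = 0.05, not below the threshold) and with DESeq2 (adjusted p = 0.0554). Across the 3 cell types Mmp14 and Mmp2 were thus both low in macrophages, at 6.11 and below in every library, and both at 43.5 or above in the other libraries.

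Mmp19, a secreted MMP with a broad range of matrix substrates, was highest in the MAEC libraries. It maps to chromosome 10, 128790910 to 128800824, plus strand. Length-scaled levels at 0 h were 58.8, 58.1 and 29.6 in MAEC, 17.4, 18 and 21.5 in macrophages and 2.74, 4.92 and 3.89 in fibroblasts, again without overlap. MAEC exceeded fibroblasts by 4.24 log2 units (SE 0.212, edgeR adjusted p = 1.63e-15), and macrophages exceeded fibroblasts by 2.81 (SE 0.203, edgeR adjusted p = 2.75e-12). Exons of Mmp19 share 789 bases with Tmem198b and 212 bases with Gm47093, both on the opposite strand, so part of its count cannot be assigned where strand was not used.

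Timp1 is an inducible secreted inhibitor, encoded on chromosome X, 20870166 to 20874735, plus strand. Its length-scaled levels at 0 h were 4340, 5670 and 7480 in the MAEC libraries, 584, 625 and 589 in fibroblasts and 10.5, 10.2 and 7.03 in macrophages. The order MAEC, fibroblasts, macrophages held with no overlap, with log2 differences of 3.92 between MAEC and fibroblasts (SE 0.2, edgeR adjusted p = 4.05e-15) and -5.50 between macrophages and fibroblasts (SE 0.227, edgeR adjusted p = 4.36e-17). Timp3, the inhibitor that stays bound to the matrix (chromosome 10, 86300372 to 86349506, plus strand), followed the same order: 988, 898 and 682 in MAEC, 44.5, 52.2 and 46.7 in fibroblasts and 2, 1.26 and 1.43 in macrophages. MAEC stood 4.76 log2 units above fibroblasts (SE 0.207, edgeR adjusted p = 1.77e-16). Timp3 lies within Syn3 on the opposite strand, with 1733 exon bases in common.

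Timp2, the inhibitor that also bridges pro-MMP2 to MT1-MMP, was the most even of the 10 genes across cell types. It maps to chromosome 11, 118301069 to 118355740, minus strand. Length-scaled levels at 0 h were 368, 398 and 388 in macrophages, 426, 363 and 455 in fibroblasts and 508, 525 and 345 in MAEC, and all 3 sets overlapped. In the edgeR model MAEC was 0.74 log2 units above fibroblasts (SE 0.109, edgeR adjusted p = 1.11e-06) and macrophages lay below MAEC (log2 difference -0.34, edgeR adjusted p = 0.00693). Macrophages were 0.40 above fibroblasts (SE 0.108, edgeR adjusted p = 0.00198), but this direction turned when libraries were scaled by their totals alone (-0.017, edgeR adjusted p = 0.922). Between macrophages and fibroblasts the sign for Timp2 therefore depends on the scaling.

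Within each cell type at 0 h, the order of the length-scaled levels was as follows. In macrophages Timp2 (385 ± 15, SD, n = 3) and Mmp12 (250 ± 22.1) stood far above Mmp19 (19 ± 2.24) and Mmp13 (16.9 ± 1.6), which overlapped each other. Timp1 (9.25 ± 1.92) and Mmp14 (4.74 ± 0.68) came next, and Mmp3, Timp3, Mmp9 and Mmp2, from 1.8 down to 0.851, overlapped their neighbours. In fibroblasts the order was Timp1 (599 ± 22.2), Timp2 (415 ± 46.8), Mmp14 (149 ± 17.9), Mmp2 (75.3 ± 6.11) and Timp3 (47.8 ± 3.94), each separate from the next. Mmp3 (3.98 ± 1.77) and Mmp19 (3.85 ± 1.09) overlapped, and Mmp9, Mmp12 and Mmp13 lay at 2.02, 0.393 and 0.217. In the MAEC libraries Timp1 (5830 ± 1570), Mmp3 (1680 ± 44.7), Timp3 (856 ± 157) and Timp2 (459 ± 99.8) were separate, Mmp2 (113 ± 41.4) overlapped Mmp14 (75.6 ± 27.9), which overlapped Mmp19 (48.8 ± 16.6), and Mmp13 (21 ± 6.49) stood above Mmp9 and Mmp12.

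The chromosome 9 cluster showed how unlike neighbouring MMP genes were. In genome order, the genes with counts were Mmp13, Mmp12, Mmp1b, Mmp3, Mmp10, Mmp8 and Mmp27; the last 3 and Mmp1b are not among the 10 genes and were named by position after their values were seen. In macrophages, Mmp27 had length-scaled levels of 65.9 to 80.6 over 9 libraries and Mmp8, the neutrophil collagenase, 14.6 to 20.1. Neutrophil markers summed to 6.86 to 9.64 CPM in the same libraries, with S100a8 and S100a9 at or above a mean of 1 CPM, Ly6g at 0 and Elane at most 0.141 CPM, and their part in the Mmp8 level was not tested. Mmp10 (stromelysin-2), next to Mmp3, had levels of 17.6 to 32.8 in the MAEC libraries and at most 2.07 and 3.26 in macrophages and fibroblasts. In fibroblasts, no gene of the cluster exceeded the 5.82 of Mmp3. Macrophages thus carried Mmp12, Mmp27, Mmp8 and Mmp13, and the MAEC libraries Mmp3, Mmp13, Mmp10 and, at 2.25 to 8.71, Mmp1b. The AP-1 letters printed above were in the windows of Mmp3, Mmp13, Mmp10, Mmp1b and the downstream start of Mmp12, and not in those of Mmp8 and Mmp27.

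**Figure D3:**
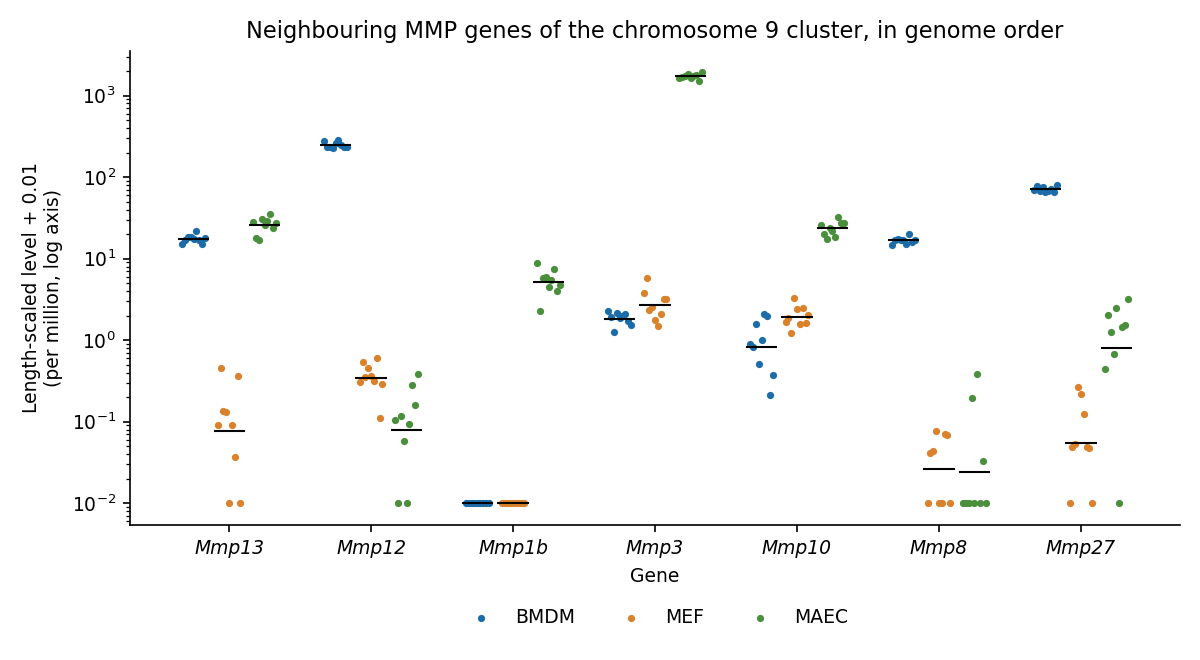
Points are the 27 libraries, placed by length-scaled level plus 0.01 (log axis) for 7 neighbouring MMP genes of chromosome 9 in genome order, and short lines are geometric means of the plotted values. Mmp12, Mmp8 and Mmp27 are high in BMDM, Mmp3, Mmp10 and Mmp1b in MAEC, and Mmp13 in both.

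Changes with ImP were tested within each cell type by edgeR over its 9 libraries. None of the 10 genes passed the threshold in any comparison of 2 times. In macrophages all 10 were tested: 0 were called at 1 h against 0 h, where 0.0226% of all genes were called, 0 at 2 h against 0 h (0.0302%) and 0 at 2 h against 1 h (0%). The count of the 10 at an unadjusted p under 0.05 was also 0 in each, against 693, 815 and 218 of all 13251 genes tested. In fibroblasts, 9 were tested (Mmp13 was filtered out for low counts). Of these, 0 were called at each of the 3 comparisons, where 0% of all genes were called. An unadjusted p under 0.05 was found for 1 of them, Mmp3 at 1 h, and for 826 of all 14066 genes tested there. In the MAEC libraries, 8 were tested (Mmp9 and Mmp12 were filtered out). Of these, 0 were called in each comparison, again with 0% of all genes called. Mmp14 and Mmp19 at 2 h against 0 h had unadjusted p under 0.05, as did 1361 of all 14779 genes tested there. DESeq2 and limma-voom also called 0 of the 10 in each of these comparisons.

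The third macrophage libraries at 1 h and at 2 h stood apart from their groups in earlier results of these data and were left out together as an alternative. Their library codes run against the order of time, unlike those of the other runs. Whether the labels of these libraries were exchanged was not tested, and they are named here as labelled. Leaving both out raised the share of genes called to 0.928% at 1 h, 0.119% at 2 h and 0.661% for 2 h against 1 h, while 0 of the 10 genes were called in each. For the 10 genes the log2 changes at 1 h ran from -0.14 to 0.47 with all libraries and from -0.18 to 0.63 without the 2, and the largest was that of Mmp9, at 24 to 69 raw counts in the 0 and 1 h libraries.

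In macrophages the abundant genes varied little. Mmp12 (CPM, TMM-scaled within the cell type) had 413, 368 and 355 at 0 h, then 325, 378 and 421 with 1 h of ImP and 368, 348 and 345 with 2 h. The 3 times overlapped, and the log2 change was -0.01 at 1 h (95% interval -0.20 to 0.17) and -0.10 at 2 h (-0.29 to 0.09). Timp2, in CPM, had 569, 636 and 598 before ImP, then 586, 578 and 586 with 1 h of it and 606, 627 and 598 with 2 h, a change of -0.04 (95% interval -0.16 to 0.08) and then 0.02 (-0.10 to 0.14). The collagenase Mmp13 gave CPM values of 17.1, 19.3 and 20.6 before ImP, 19.5, 18.6 and 24 after 1 h and 18.4, 16.5 and 19.4 after 2 h. The highest Mmp13 and Mmp12 values of the 9 libraries were both in the third 1 h library. Mmp19 changed by 0.00 at 1 h (95% interval -0.22 to 0.23) and Mmp14 by 0.21 (-0.10 to 0.53). For Mmp2 and Mmp9, with at most 61 and 69 counts, the intervals reached 1.19 and 1.26 at 1 h, so a change of 1 log2 unit lies within them.

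In fibroblasts Mmp3 had the smallest p of the 10 genes. Its raw counts were 96, 141 and 50 before ImP, 57, 40 and 37 after 1 h and 52, 80 and 81 after 2 h, or 2.71, 4.11 and 1.59 CPM, then 1.81, 1.3 and 1.13, then 1.46, 2.24 and 2.25. The 0 and 1 h libraries overlapped, and the second 0 h library was the highest of the 9. The log2 change at 1 h was -0.99 (SE 0.351, 95% interval -1.74 to -0.23, edgeR adjusted p = 0.846), and -0.61 without the second 0 h library (adjusted p = 0.7). Over all alternatives the adjusted p at 1 h ran from 0.303 to 1. The Mmp14 values, in CPM, were 197, 164 and 203 without ImP, 174, 180 and 203 after 1 h and 193, 198 and 207 after 2 h, overlapping throughout, with changes of -0.02 (95% interval -0.20 to 0.17) and 0.09 (-0.10 to 0.27). Mmp2 ranged from 83.2 to 95.4 CPM without ImP and from 95.4 to 96.9 after 2 h, a change of 0.09 (95% interval -0.06 to 0.24). For Timp1 the CPM values were 203, 216 and 199 without ImP and 208, 231 and 248 after 1 h, a change of 0.15 (-0.02 to 0.32, edgeR adjusted p = 0.848).

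**Figure D4:**
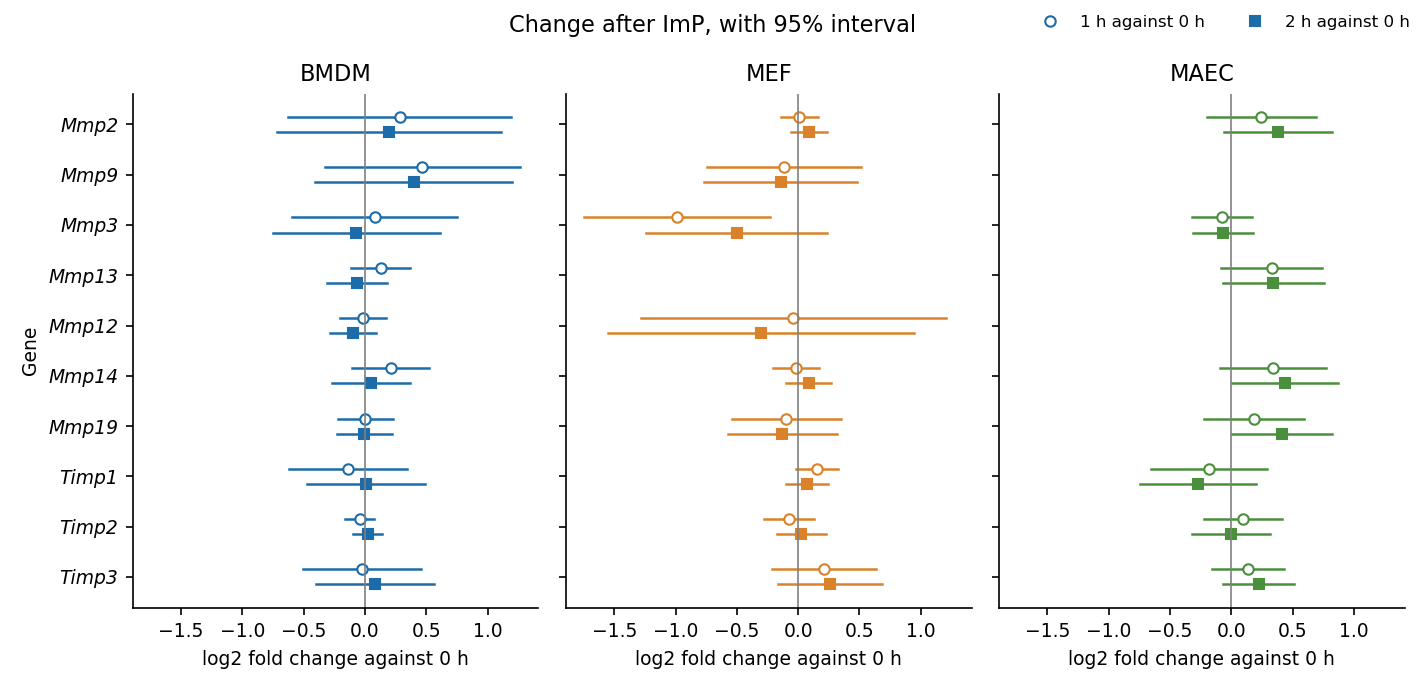
Symbols give the log2 fold change at 1 h (open circles) and 2 h (filled squares) against 0 h for each tested gene in each cell type, and lines the 95% interval from edgeR. Intervals are narrow for abundant genes (Timp2 in BMDM, -0.16 to 0.08 at 1 h) and wide for scarce ones (Mmp12 in MEF, -1.28 to 1.21), and no gene passed the adjusted threshold.

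In the MAEC libraries 4 metalloproteinases had higher means at 2 h than at 0 h without passing the test. Mmp14 gave 154, 150 and 83.9 CPM without ImP, 168, 137 and 186 after 1 h and 183, 152 and 190 after 2 h. Mmp19 gave 102, 101 and 60.1 CPM without ImP and 124, 103 and 124 after 2 h. Mmp2 gave 230, 199 and 122 CPM without ImP and 256, 211 and 250 after 2 h. In each of these the third 0 h library was the lowest of the 9. The log2 changes at 2 h were 0.44 for Mmp14, 0.41 for Mmp19 and 0.38 for Mmp2 (edgeR adjusted p = 0.541, 0.541 and 0.583), and 0.20, 0.20 and 0.15 without that library. For Mmp13 the log2 difference was 0.34 (95% interval -0.07 to 0.75, edgeR adjusted p = 0.591), with 0.20 to 0.58 when 1 library was left out, lowest without the first 2 h and highest without the first 0 h library. Outside the 10 genes, Mmp10 gave 22.4, 17.9 and 18.1 CPM without ImP and 26.7, 24.2 and 23.8 after 2 h, without overlap. Its log2 change of 0.35 did not pass the threshold either (edgeR adjusted p = 0.553).

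That library, the third at 0 h, was the lowest of the 9 in 5 of the 10 genes (Mmp2, Mmp14, Mmp19, Timp2 and Timp3) and the highest in 2 (Mmp3 and Timp1). Timp1 had 1960, 2570 and 3930 CPM without ImP, 1900, 2880 and 2680 after 1 h and 2180, 2730 and 2110 after 2 h, and its change at 2 h went from -0.27 to 0.05 without that library. With the gene length trend of every library removed, the Timp1 change at 2 h was -0.01. Mmp3, the leading metalloproteinase of these cells, had 1500, 1550 and 1850 CPM without ImP, 1560, 1510 and 1590 after 1 h and 1530, 1400 and 1750 after 2 h, overlapping at all times, with a change of -0.07 (95% interval -0.31 to 0.17) at 2 h. Timp3 had 2390, 2180 and 1920 CPM without ImP and 3020, 2250 and 2300 after 2 h, a change of 0.22 (95% interval -0.07 to 0.52). That change became 0.09 once the length trend was removed, and leaving out the third 0 h or the first 2 h library gave 0.14 and 0.07. The log2 change of Timp2 at 2 h was 0.00 (95% interval -0.32 to 0.32). The biological coefficient of variation was 0.326 in the MAEC libraries against 0.126 in each of the other cell types.

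**Figure D5:**
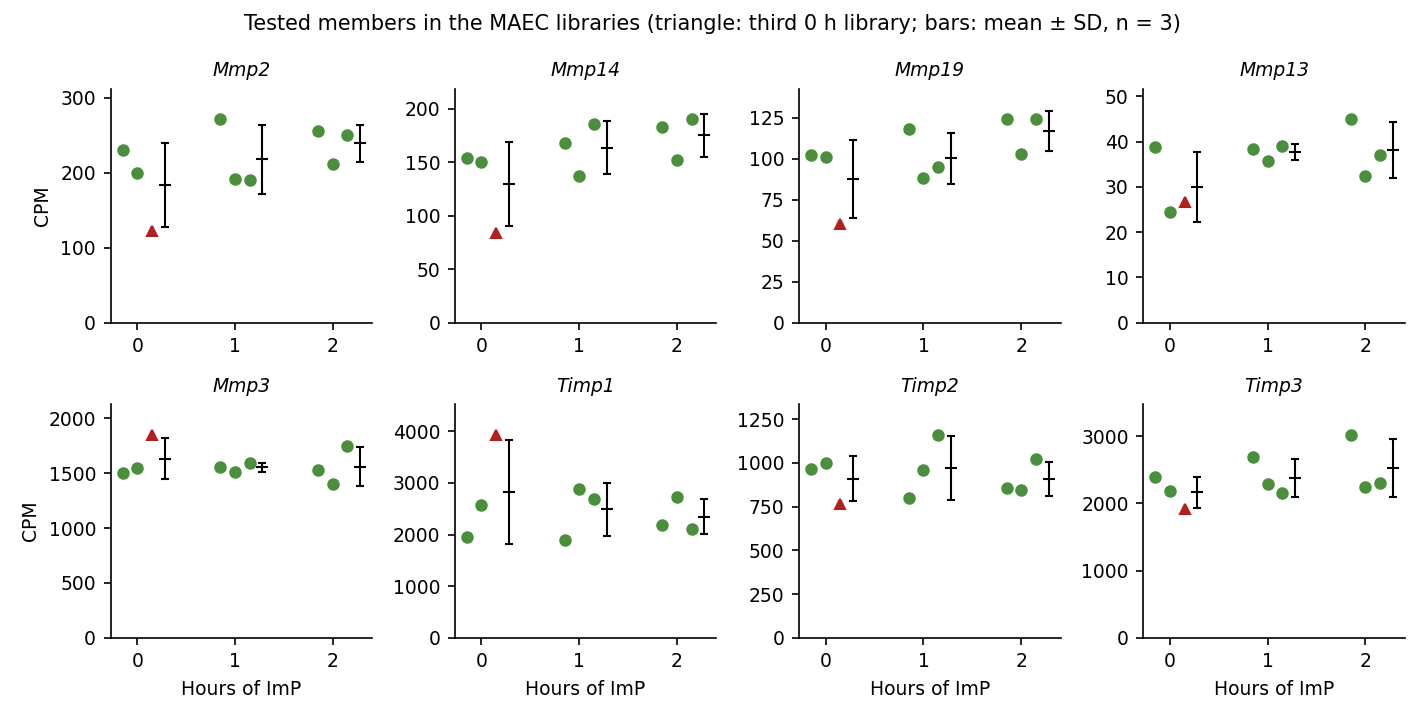
Panels give CPM (TMM-scaled) for the 8 tested genes in the 9 MAEC libraries by hours of ImP, with the mean ± SD (n = 3) beside each time and the third 0 h library as a triangle. The triangle is the lowest point for Mmp2, Mmp14, Mmp19, Timp2 and Timp3 and the highest for Mmp3 and Timp1.

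Whether the change with ImP differed between cell types was tested as an interaction in the model of 27 libraries. For macrophages against fibroblasts, 0 of the 10 genes were called at 1 h (0.00587% of all genes) and 0 at 2 h (0.0117%). For MAEC against fibroblasts, 0 were called at 1 h and 0 at 2 h (0% of all genes in both). For macrophages against MAEC, 0 were called at 1 h (0.0117%) and 0 at 2 h (0.0528%). At an unadjusted p under 0.05 there were 1, 0, 1, 1, 0 and 1 of the 10 genes in these 6 comparisons, in the order given. Over all 17038 genes tested there were 616, 372, 1873, 1351, 1138 and 1337. DESeq2 and limma-voom also called 0 of the 10 in each. The smallest p of the 10 genes belonged to Mmp3: its change at 1 h was 0.89 log2 units higher in MAEC than in fibroblasts (95% interval 0.25 to 1.53, edgeR adjusted p = 0.328, 0.179 to 0.557 over the alternatives). Fitted alone, the Mmp3 change at 1 h was -0.986 in fibroblasts (SE 0.351) and -0.075 in MAEC. Mmp3 counts were 37 to 141 in fibroblasts and 28605 to 96681 in MAEC. The model gives each gene 1 dispersion over all 27 libraries, so the interval does not rest on the scarce fibroblast counts alone. It may therefore be too narrow for the spread of the fibroblast libraries. The change of Mmp12 at 2 h differed by -1.67 between macrophages and MAEC (edgeR adjusted p = 0.451) on 0 to 20 MAEC counts.

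The ratio of the 7 metalloproteinases to the 3 inhibitors, each summed on the length-scaled level in a library, described the balance of transcripts. At 0 h it was 0.832, 0.684 and 0.717 in macrophages, 0.22, 0.211 and 0.232 in fibroblasts and 0.336, 0.277 and 0.221 in the MAEC libraries. Macrophages lay above both others without overlap, and MAEC overlapped fibroblasts. On the log2 scale the macrophage ratio was 1.75 above that of fibroblasts and 1.44 above that of MAEC, and each gave p = 0.1 in a two-sided exact permutation test, the smallest that 3 against 3 libraries allow (0.45 after adjustment over 9 comparisons). MAEC and fibroblasts differed by 0.31 (exact permutation p = 0.2, adjusted 0.45). The sizes depended on the length used: with CPM in place of length-scaled levels the 3 differences were 1.14, 1.025 and 0.12, and with summed exon length, added after the data were seen, 1.49, 0.63 and 0.86. The MAEC minus fibroblast difference was 0.16 without the first MAEC 0 h library and 0.46 without the third. With ImP the log2 ratio differed from 0 h by 0.04 and -0.11 in macrophages, -0.09 and 0.01 in fibroblasts and 0.08 and 0.15 in MAEC at 1 and 2 h, with exact permutation p from 0.2 to 1 and adjusted p from 0.45 to 1. On this scale the 3 inhibitors outweighed the 7 metalloproteinases in every group, with mean ratios from 0.208 to 0.763. Other MMP genes are not in this ratio. In macrophages at 0 h, Mmp27 made up 18.6% and Mmp8 4.25% of the summed level of the 20 MMP genes. A ratio over all 20 was not tested, so the macrophage balance is given for the listed genes only.

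The wider pathway was described from lists of other MMPs (13 in the table), inhibitors and clearance receptors (10), activating proteases (12), ADAM and ADAMTS proteases (16) and matrix substrates (14). Between the times within a cell type, edgeR called 0 of 426 tests over these lists, 42 had an unadjusted p under 0.05, limma-voom called 0 and DESeq2 called 5. Over all genes tested by edgeR, the count at that unadjusted p differed by comparison. For 1 h against 0 h, 2 h against 0 h and 2 h against 1 h it was 693, 815 and 218 of 13251 in macrophages. In the same order it was 826, 342 and 1709 of 14066 in fibroblasts and 733, 1361 and 293 of 14779 in MAEC. The 42 are not split by comparison here, so they are not read as more or fewer than over all genes. The 5 DESeq2 calls, named after their values were seen, were all in fibroblasts at 2 h against 1 h: Adam12, Col4a1, Lamc1, Lrp1 and Tnc, with DESeq2 log2 changes of 0.26 to 0.46 and DESeq2 adjusted p from 0.00299 to 0.0382, against edgeR adjusted p from 0.142 to 0.21. No DESeq2 count over all genes is given beside them, so they are not read as particular to these lists. At 0 h, each list held genes called between cell types, over backgrounds of 32.7% to 40.6% of genes called in a direction. For macrophages against fibroblasts the background was 32.7% higher and 35.5% lower. Of the matrix substrates, 12 of 14 were lower and 0 higher in macrophages than in fibroblasts (median log2 difference -8.26, against -0.065 over all genes), with Sparc, a collagen-binding matricellular protein, at -7.65 and Fn1, fibronectin, at -8.22. Of 11 activating proteases tested, 6 were higher and 3 lower in macrophages than in fibroblasts: Ctss and Ctsb, lysosomal cathepsins, by 10.44 and 6.06 log2 units, and Plat, tissue plasminogen activator, at -8.94. In the MAEC libraries Plau, urokinase, was lower than in fibroblasts (-5.38) and Ctsk, cathepsin K, higher (8.78).

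Inhibitors and clearance receptors split as well. Lrp1, an endocytic receptor that clears MMP and TIMP complexes, was 1.95 log2 units higher in macrophages than in fibroblasts and 3.02 higher than in MAEC. Reck, a membrane-anchored MMP inhibitor, was lower in macrophages than in fibroblasts (-2.05) and higher in MAEC than in fibroblasts (1.78). Of 11 other MMPs tested, 2 were higher and 5 lower in macrophages than in fibroblasts (background 32.7% and 35.5%). In MAEC, 6 were higher and 1 lower than in fibroblasts (background 37.2% and 34.9%), with the smallest p for Mmp23 (8.66) and Mmp16 (3.09). Of 16 ADAM and ADAMTS genes, 6 were higher and 8 lower in macrophages than in fibroblasts (background 32.7% and 35.5%), with Adam8 at 5.09 and Adamts5, an aggrecanase, at -6.63. Each difference named here passed the edgeR threshold.

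The genes most like each of the 10 across the 27 libraries were sought by Pearson correlation of log2 CPM. The libraries fall into 3 clusters by cell type, and kit goes with the MAEC cluster, so these values describe a shared pattern over cell types and carry no test. Mmp3 was most like Dkk3, Vcan and Gfpt2 (r = 0.998, 0.998 and 0.997), Timp1 like S100a16, Efemp2 and Cavin2 (0.998, 0.998 and 0.997), and Timp3 like Rcn1, Vcam1 and Cxcl12 (0.998, 0.997 and 0.997). Mmp12 was most like Cd84, Ccl6 and Acox3 (each 0.993), Mmp2 like Pdlim7, Lox and Ereg (each 0.995), and Mmp14 like Cacnb3, Amotl1 and Tent5b (0.996, 0.995 and 0.994). Mmp13 was most like Bmyc, Lipo3 and Map10 (0.993, 0.991 and 0.988) and Mmp19 like Svip, Gpx3 and Stoml1 (0.99, 0.99 and 0.989). The highest values for Timp2 (Crtap, 0.959) and Mmp9 (Tas1r3, 0.93) were lower.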

How the data were processed

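Reads had been trimmed, checked, aligned and counted by the authors before deposit; per the submitters' processing notes STAR, RSEM, cutadapt, FastQC, DESeq2 and R 4.3.2 were used with GRCm38.p6 (mm10), in roles that are not given; other versions, settings and the strand of counting are not given in the sources used here. The deposited values were taken as the authors' expected counts per gene symbol (RSEM is the only counter named) and were already whole. Symbols were matched to GENCODE M21 for length and position (97.1% of 25192).

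The replicate numbers in the text were given in accession order and pair no libraries. EdgeR 4.0.16 in R 4.3.3 was used with filterByExpr (minimum count 10), TMM scaling, robust dispersions, the two-sided quasi-likelihood test and Benjamini-Hochberg adjustment at 0.05: per cell type (13251, 14066 and 14779 genes in BMDM, MEF and MAEC) and over 27 libraries (17038 genes). Intervals are the edgeR log2 change and its standard error at 95%. Alternatives were DESeq2 1.42.0, limma-voom (limma 3.58.1), library totals alone or RLE scaling, testing with no filter or at a mean of at least 1 CPM, only the groups compared, runs of library codes as a block, gene length trend removed, each library left out, and the third 1 h with the third 2 h macrophage library left out; leaving out each library in the 27-library model and union exon length for the ratio were added after the data were seen. Likeness used a prior count of 2.

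The 10 genes and the lists were chosen with earlier results of these data known. All 10 genes are named; from other lists at most 4 genes per comparison, those with the smallest p, are named.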

Additional observations from a re-analysis of the deposited data

How the results depend on the processing

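The count of the 10 genes called was 0 under every alternative run for the comparisons of times and the interactions. At 0 h it ran from 8 to 9 (9 as reported) for macrophages against fibroblasts, 9 to 10 (10) for MAEC against fibroblasts and 8 to 10 (9) for macrophages against MAEC. For single genes at 0 h, 976 of 990 recomputed differences kept direction and side of the threshold. The only reversal was Timp2, macrophages minus fibroblasts, under library totals alone (-0.017, adjusted p = 0.922). Another 12 lost the call, all for Mmp3, Mmp14 or Mmp9 as given above, and 1 gained it (Mmp13, macrophages minus MAEC, DESeq2); the cause was not tested. Within cell types, none of 1485 recomputed changes passed the threshold, and 91 of them, in 46 changes, had the opposite sign.

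With 1 library left out, the log2 difference of the MMP to TIMP ratio ran from -0.034 to 0.124 at 1 h and -0.167 to -0.026 at 2 h in macrophages, -0.123 to -0.054 and -0.021 to 0.048 in fibroblasts, and -0.079 to 0.224 and -0.002 to 0.307 in MAEC. Its sign turned without the third 1 h or the second 0 h library in macrophages at 1 h, without the first 2 h or the second 0 h library in fibroblasts at 2 h, without the first 1 h or the third 0 h library in MAEC at 1 h, and without the third 0 h library in MAEC at 2 h.

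The number of all genes called depended on the processing: from 2 to 125 (3 as reported) in macrophages at 1 h and 1 to 16 (4) at 2 h, and up to 89 for 2 h against 1 h (0). In fibroblasts it reached 10 and 5 against 0 h and 365 for 2 h against 1 h, the last without the first 1 h library (0 as reported in each), and in MAEC 1, 22 and 6 (0 in each); DESeq2 gave the 10, 5 and 22. The interaction counts ran from 1 to 27 (1 as reported) and 1 to 5 (2) for macrophages against fibroblasts at 1 and 2 h, from 0 to 132 at both times for MAEC against fibroblasts (0 in each), and from 1 to 62 (2) and 1 to 148 (9) for macrophages against MAEC; the highest of the last 4 came without the first MAEC 0 h library, with 0 of the 10 genes called throughout. The labels carry no replicate numbers, so no pairing is known; with runs of consecutive library codes as a replicate block, edgeR called 0 of the 10 genes within each cell type, and 1 gene of the whole table in fibroblasts at 1 h (0 without the block). Genes with few counts (Mmp9, Mmp12 and Mmp13 where scarce) are limited by depth.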
